A study of Homo sapiens with 4 samples.

Results

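The distal part of the long arm of chromosome 3, from 171 to 198 Mb in hg19, was examined for 5-methylcytosine in C42B cells, a prostate cancer line derived from LNCaP. The segment lies beyond PRKCI, the gene of the atypical protein kinase C that the labels call PKCl/i. Its members are all peaks of 2 deposited lists that overlap these 27 Mb. The segment was chosen by a measured value, the lower knockout-to-control ratio of paired peaks there, so that ratio is given below as a description and supports nothing. The control list held 4131 members of 261657 peaks in all, and the knockout list held 4185 of 296521.

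Methylated DNA was captured with an antibody against 5-methylcytosine and sequenced. The control cells carried a control guide (sgC, labelled WT) and the knockout cells a guide against PKCl/i (labelled PKCl/i KO). Both were untreated and were harvested 48 h after plating at about 70% confluency. An input and an immunoprecipitated library were made once per genotype, which leaves no replicate check, and genotypes were not tested against each other. The labels do not say whether the knockout cells were 1 clone or a pool, and a peak list does not show whether PRKCI was lost.

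Methylation of cytosine in CpG dinucleotides is usual along transcribed gene bodies and in repeats, and usually absent from CpG-rich promoters of active genes. The segment carries genes that are known from squamous carcinomas, where this chromosome arm is often gained. PIK3CA encodes the catalytic subunit p110α of phosphoinositide 3-kinase. SOX2 is a transcription factor of stem cells that is also known from neuroendocrine prostate tumours. TP63 encodes a p53 family transcription factor of basal epithelial cells and is used as a marker of the basal layer of the prostate.

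The starts of these 3 genes differ in how many CpG dinucleotides they offer to the antibody, which is why they are shown here. Each sequence runs 5′ to 3′ on the plus strand of chromosome 3, from 250 bases before the gene start to 50 after it, as RefSeq gives it for GRCh38.p14, with each CpG in capitals.
PIK3CA: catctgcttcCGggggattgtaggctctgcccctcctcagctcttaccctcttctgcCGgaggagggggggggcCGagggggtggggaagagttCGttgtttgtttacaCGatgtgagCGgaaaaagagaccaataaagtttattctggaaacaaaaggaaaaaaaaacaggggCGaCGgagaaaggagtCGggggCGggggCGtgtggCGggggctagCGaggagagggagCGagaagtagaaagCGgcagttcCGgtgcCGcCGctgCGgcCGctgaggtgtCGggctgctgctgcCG
SOX2: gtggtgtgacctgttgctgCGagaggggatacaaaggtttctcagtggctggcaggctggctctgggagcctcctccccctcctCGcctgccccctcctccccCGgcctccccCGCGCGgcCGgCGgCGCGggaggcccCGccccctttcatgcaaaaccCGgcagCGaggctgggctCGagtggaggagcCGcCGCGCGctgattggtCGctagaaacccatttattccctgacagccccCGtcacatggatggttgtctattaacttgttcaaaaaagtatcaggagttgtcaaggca
TP63: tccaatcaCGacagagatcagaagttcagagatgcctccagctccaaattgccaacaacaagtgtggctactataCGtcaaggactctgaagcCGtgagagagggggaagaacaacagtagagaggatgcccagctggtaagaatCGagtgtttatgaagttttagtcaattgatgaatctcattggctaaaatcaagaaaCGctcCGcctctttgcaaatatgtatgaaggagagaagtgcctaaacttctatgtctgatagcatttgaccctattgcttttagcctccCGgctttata
The PIK3CA start held 22 CpG in 300 bases, the SOX2 start 20 and the TP63 start 7. Over 27305 promoters of the same length the median was 14, and the motif CG occurred at least as often in 37.6% of them as at PIK3CA, in 41.2% as at SOX2 and in 62.5% as at TP63. CG reads the same on both strands, so each match counts for both. These sequences are from another build than the peaks, and no peak is placed on them.

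The segment held nearly as many methylated regions in the control as in the knockout, although the knockout library was deeper. Depth was read from the lowest local background in each list, called the floor here, which in the model of this peak caller is the mean pileup over the genome. This floor stood at 2.92 for the control list and at 4.42 for the knockout list, 1.51 times as high. The knockout list had 1.01 times the control's peaks in the segment, 1.23 times on the rest of chromosome 3 and 1.13 times on the other chromosomes. The covered length followed the same order. Control members covered 2.34 Mb and knockout members 2.36 Mb, 1.01 times as much, against 1.28 times on the rest of chromosome 3. The median control member was 467 bp long and the median knockout member 461 bp. Of the control members 84.7% (83.6 to 85.8) overlapped a knockout peak by at least 1 bp, against 89.1% (88.5 to 89.6) on the rest of chromosome 3. Of the knockout members 83.9% (82.8 to 85.0) overlapped a control peak, against 71.6% (70.8 to 72.3). On the other chromosomes the shares were 87.9% of control peaks and 76.2% of knockout peaks. The segment was chosen by its lower knockout-to-control ratio, which itself tends to give fewer knockout peaks and fewer of them without a control peak. These contrasts of counts, covered length and overlap are therefore descriptions, and nothing is read from them. Intervals of shares are exact Clopper-Pearson intervals at the 95% level and cover counting error only.

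Each genotype was also set against the rest of its own chromosome 3, within 1 library at a time. In the control, peaks were higher in the segment than on the rest of the chromosome, with a median pileup of 28 against 25, or 1.12 times. In the knockout they were slightly lower, with 36 against 37, or 0.973 times. The local background behaved alike. Its mean log2 level in the segment minus that on the rest was 0.15 for control peaks and -0.08 for knockout peaks. In the control 7.87% of members had a background at the floor, against 32.0% of peaks on the rest of chromosome 3. In the knockout the figures were 31.0% and 23.8%. A background above the floor reflects reads counted near the peak, and whether the input or the immunoprecipitated library supplied them is not given in the sources used here. Pileup alone cannot tell fewer copies of the DNA from less methylation per copy.

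Paired regions carried these levels into the ratio that had chosen the segment. A pair is a control peak and a knockout peak that overlap each other and no other peak, and its ratio is knockout pileup over control pileup, divided by the ratio of the floors. Over 3229 pairs in the segment the median log2 ratio was -0.21 (-0.23 to -0.20, order-statistic interval over pairs), or 0.863-fold, with quartiles of -0.41 and 0.01. The 9796 pairs elsewhere on chromosome 3 had a median of 0.10 (0.09 to 0.11), and those of other chromosomes 0.04. The difference from the rest of chromosome 3 was -0.32 (-0.33 to -0.30). Pairs spread about as widely in the segment (SD 0.32) as on the rest (SD 0.34). Regions called in 1 list only have no pair, so these SDs cannot tell a shift of all regions from a change in a tail. The local background stood lower in the same pairs, where the log2 background ratio averaged -0.11, against 0.14 on the rest (SD 0.37 in both). Its part in the pileup ratio was not tested.

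**Figure D1:**
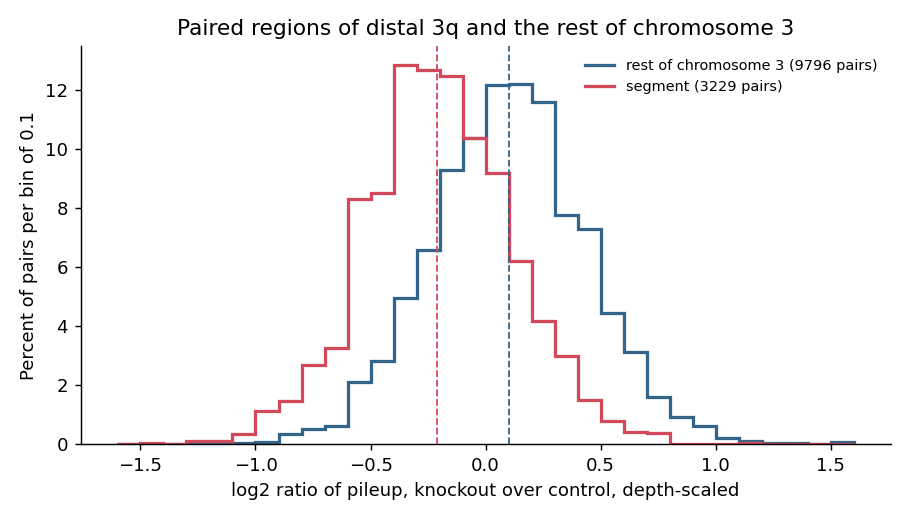
Distribution of log2 knockout-to-control pileup ratios after division by the ratio of floors, as percent of pairs in bins of 0.1 for the segment (red) and the rest of chromosome 3 (blue). Dashed lines mark the medians of -0.21 and 0.10, and both distributions have a similar width.

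Dividing by the local background removed most of the distance between the segment and the rest. The authors' fold enrichment, pileup over local background with 1 added to each, gave a median log2 ratio of -0.02 (-0.04 to -0.00) in the segment and 0.08 (0.07 to 0.09) on the rest of chromosome 3, a difference of -0.10. A background cannot fall below the floor, so fold enrichment does not carry the full background difference where a list is at its floor. The knockout alone was at the floor in 826 segment pairs (25.6%) and in 8.67% of pairs on the rest, and the control alone in 93 (2.88%) against 18.6%. The pileup ratio hardly varied with this class. Its median was -0.20 where both were above the floor, -0.24 where the knockout alone was at it, -0.25 where the control alone was and -0.21 in the 166 pairs where both were.

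Members of low and high pileup, and short and long ones, had like ratios. Pairs were split into 4 classes of nearly equal size by their mean level in both genotypes, from 4.29 to 41.0 times the floor. The medians from the weakest to the strongest class were -0.24, -0.23, -0.19 and -0.20. In 4 classes of mean length, up to 3237 bp, they were -0.20, -0.22, -0.24 and -0.20. Among pairs of the same levels on the rest of chromosome 3 the medians were 0.01, 0.12, 0.13 and 0.13, so the distance was least in the weakest class, at -0.25, and lay between -0.32 and -0.35 in the others. Knockout peaks were as long as their control partners in the segment, with a median length ratio of 1.00, and 1.07 times as long on the rest. Summits of a pair lay a median of 36 bp apart, against 37 bp on the rest.

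In steps of 1 Mb the lower ratio ran through the whole segment. Of 27 windows 26 held at least 20 pairs. Their medians ran from -0.36 to -0.11 with an SD of 0.06, and all 26 were below 0. On the rest of chromosome 3, 13 of 116 windows with as many pairs were below 0, and 2 were at or below the highest window of the segment. One of these was 170 to 171 Mb, next to the segment, at -0.20 over 80 pairs, and the other was 114 to 115 Mb, at -0.13 over 22 pairs. The window before 170 Mb stood at 0.05 over 128 pairs. In 21 of the 26 windows the interval over pairs held the segment median. The mean background ratio was below 0 in all 26, from -0.24 to -0.03, and the control's median pileup and background, as multiples of the floor, exceeded the knockout's in all 26. For pileup this order is not particular to the segment. Median pileup was 8.55 (control) and 8.36 (knockout) times the floor on the rest of chromosome 3, and 8.55 and 8.14 on the other chromosomes. For background the order there was the opposite, at 1.14 and 1.27 on the rest and 1.14 and 1.24 on the other chromosomes. The median log2 ratio of fold enrichment ran from -0.23 to 0.09 in the segment's 26 windows and was above 0 in 8.

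**Figure D2:**
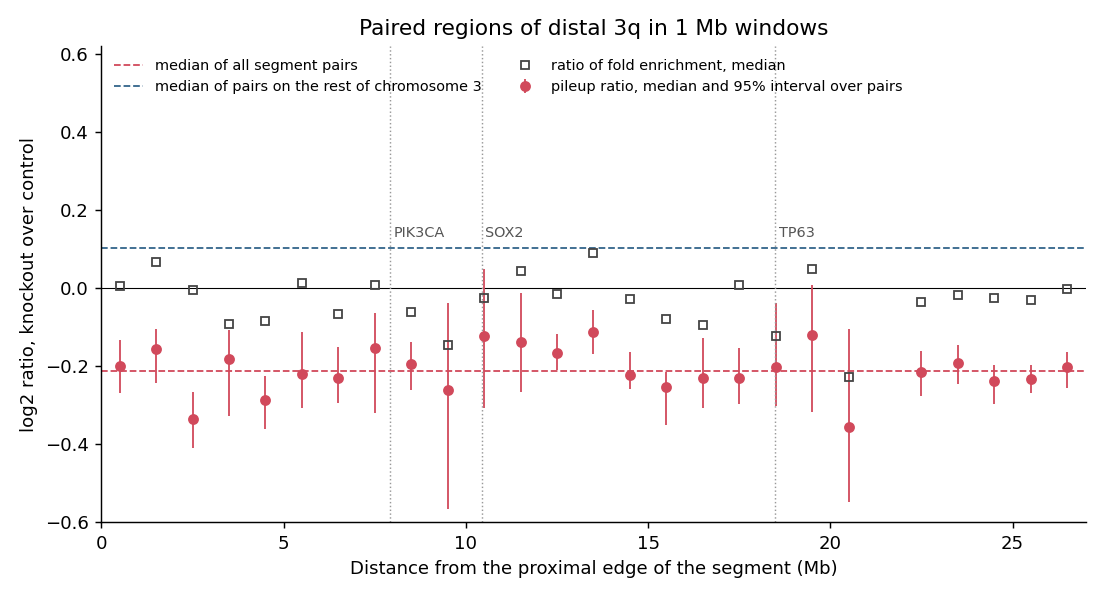
Median log2 ratio of paired pileup (red points, with 95% order-statistic intervals over pairs) and of fold enrichment (open squares) in the 26 windows of 1 Mb with at least 20 pairs, by distance from the segment's proximal edge at 171 Mb. Dashed lines are the medians over pairs of the segment (-0.21) and of the rest of chromosome 3 (0.10), and dotted lines mark the 3 genes; every red point lies below 0.

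Few windows departed from the segment median. The lowest was 191 to 192 Mb, at -0.36 (-0.55 to -0.11) over 23 pairs, followed by 173 to 174 Mb at -0.33 (-0.41 to -0.27) over 75 pairs. The third lowest, 175 to 176 Mb, was at -0.29 (-0.36 to -0.22) over 87 pairs. At the other end 184 to 185 Mb stood at -0.11 (-0.17 to -0.06) over 153 pairs, 190 to 191 Mb at -0.12 (-0.32 to 0.01) over 52 pairs and 181 to 182 Mb, which holds SOX2, at -0.12 (-0.31 to 0.05) over 46 pairs. Only 3 windows departed by more than 0.1, those at 191 and 173 Mb below and the one at 184 Mb above, the last just past the threshold, with a departure of 0.10. The largest departures that missed it were 0.09 above and -0.07 below. On the rest of chromosome 3, 4.31% of windows departed by more than 0.1 above its median of pairs and 12.1% below. The window at 192 to 193 Mb held only 7 control and 8 knockout peaks and 3 pairs, with a median of 0.12, and was not ranked.

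Density of methylated regions went up and down along the segment in both genotypes. The control had 304 and the knockout 297 peaks at 183 to 184 Mb, 7 and 8 at 192 to 193 Mb and 421 and 412 at 195 to 196 Mb, the densest window. Between the start of the segment and PIK3CA there were 119 control and 120 knockout peaks per Mb, between PIK3CA and SOX2 78.4 and 80.0, between SOX2 and TP63 162 and 166, and beyond TP63 203 and 204. The median log2 ratio in these stretches was -0.23, -0.20, -0.19 and -0.22, so peak density changed over 2-fold with little change in the ratio. In RefSeq's order of protein-coding genes, 13 lie between PIK3CA and SOX2, 65 between SOX2 and TP63 and 64 beyond TP63.

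At PIK3CA (178.866 to 178.953 Mb) the control had 8 peaks and the knockout 7, and each knockout peak had a control partner. Control pileups ran from 18 to 42 and knockout pileups from 29 to 46. The first peak of the gene, chr3:178879092-178879601, had a control pileup of 42 and a knockout pileup of 44, or 14.4 and 9.95 times the floor. Its log2 ratio was -0.53 (-1.17 to 0.11, exact conditional interval for counting error), its fold enrichment 9.66 and 5.27, and its background ratio 0.53, higher in the knockout unlike the segment's mean. The other 6 pairs lay close together, from chr3:178904991-178905763 to chr3:178922436-178922993. Of these the lowest, chr3:178914765-178915191, had pileups of 34 and 29 and a log2 ratio of -0.83 (-1.59 to -0.07). The highest, chr3:178904991-178905763, had 24 and 46 and a ratio of 0.34 (-0.40 to 1.12). Over the 7 pairs the median was -0.28 and 6 were below 0, and each interval held the segment median. The control's only unpaired peak, chr3:178891062-178891366, was its weakest there, with a pileup of 18 and a -log10 q of 7.30. In RefSeq's order PIK3CA stands between ZMAT3 and KCNMB3.

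At SOX2 (181.429 to 181.433 Mb) neither list had a peak within the gene interval beyond its edge. The interval is known only to 1 kb, so peaks at the edge cannot be placed inside or outside the gene. The control peak chr3:181428233-181429201 overlapped the edge, with a pileup of 29 (fold 5.15). Its knockout partner, chr3:181428191-181428846, reached a pileup of 55 (fold 8.42) and ended just short of it. The pair's log2 ratio was 0.33 (-0.35 to 1.03), on the other side of 0 from the segment median, which its interval still held. The knockout list alone had strong peaks (a -log10 q of at least 10) nearby. One was chr3:181412941-181413775, with a pileup of 59 (fold 3.97), and the other chr3:181436964-181437479, with a pileup of 49 (fold 6.59). Next to the second lay the control peak chr3:181438233-181438547, with a pileup of 19. Of strong knockout peaks 8.92% were in that list only over the segment and 14.9% over the genome. Within 100 kb of the gene the 15 pairs had a median of 0.04, and 9 lay above the segment median. This value depended on the flank, which was chosen after the gene's peaks were seen. It was -0.02 over 10 pairs with 50 kb and -0.21 over 35 pairs with 200 kb, the last close to the segment median.

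TP63 (189.349 to 189.615 Mb) was poor in methylated regions in both genotypes and had more of them in the knockout list. The control had 6 peaks and the knockout 16 over 266 kb. Per 100 kb this is 2.26 and 6.02, against 15.3 and 15.5 over the whole segment. All 6 control peaks overlapped a knockout peak, and 10 of the knockout peaks were in that list only. Of the segment's knockout members 16.1% were in that list only, as were 66199 of 277976 knockout peaks on the other chromosomes. Control pileups ran from 21 to 27, knockout pileups from 19 to 44, and those of the 10 knockout-only peaks from 19 to 34. The control peaks all lay in the distal part of the gene, the first of them at chr3:189526024-189526418, with its summit 177 kb into the interval. Knockout-only summits began 80.8 kb into it. The strongest was chr3:189491726-189492096, with a pileup of 34, 7.69 times the floor, a fold of 6.13 and no control peak within 33928 bp. The peaks chr3:189545736-189546181, with a pileup of 34 (fold 5.26), and chr3:189494926-189495335, with 26 (fold 4.98), were the remaining strong ones.

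The 6 pairs at TP63 were on both sides of 0. Their log2 ratios ran from -0.77 (-1.62 to 0.08) at chr3:189605675-189606098, with pileups of 27 and 24, to 0.22 (-0.52 to 0.99) at chr3:189575847-189576388, with 25 and 44. The median was -0.12, and each interval held both 0 and the segment median. With knockout pileup and background divided by the ratio of floors and both lists held to the same number of peaks, 12 of the 16 knockout peaks and 7 of the 10 knockout-only peaks still passed. Over the segment the same step kept a larger share of knockout peaks, 3736 of 4185, and a like share of knockout-only peaks, 485 of 672. Passing did not require a -log10 q of at least 10. Of the strong knockout-only peaks at TP63, chr3:189491726-189492096 kept a -log10 q of 10.5. The others, chr3:189545736-189546181 and chr3:189494926-189495335, fell to 9.01 and 6.95 and were no longer strong. The window at 189 to 190 Mb, which holds TP63, had 69 control and 86 knockout peaks, the highest ratio of the segment's windows at 1.25. This is close to the 1.23 of the whole rest of chromosome 3, where single windows went higher. One of them, 78 to 79 Mb, had 29 control and 62 knockout peaks, a ratio of 2.14. Some windows with fewer control peaks went higher still. The window at 7 to 8 Mb had 16 and 40, a ratio of 2.5, and 60 to 61 Mb had 2 and 7, a ratio of 3.5. In RefSeq's order TP63 stands between TPRG1 and P3H2.

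Single pairs rarely departed from the segment median by 2-fold. Of 3229 pairs 3 lay at least 2-fold above it (0.0929%) and 5 at least 2-fold below (0.155%), against 0.375% and 0.2% of all pairs of the genome around their own median. The ratio chose the segment, so nothing is read from these shares. The pairs just inside the threshold departed by 1.00 in either direction, and the first outside it by 0.99 above and -0.94 below. The counting interval of the ratio left out the segment median for 78 pairs (2.42%), against 3.04% of all pairs of the genome around their own median.

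The pair furthest above was chr3:196366714-196367096, with a control pileup of 31, a knockout pileup of 104 and a log2 ratio of 1.15 (0.56 to 1.78). Its background was 1.94 and 1.92 times the floor, nearly equal, and its fold 4.79 and 11.1. The knockout peak was longer, 837 against 383 bp, with its summit 164 bp away. A short way distal to it lay one of the pairs furthest below, chr3:196369610-196370243, with 28 and 18 and a log2 ratio of -1.24 (-2.18 to -0.33), so neighbouring regions went opposite ways. The next pairs above, chr3:185544067-185544589 with 37 and 97 and chr3:183542064-183542756 with 44 and 115, had log2 ratios of 0.79 each. Their knockout background was also higher, by 0.93 and 0.61 on the log2 scale, and their fold ratios were -0.01 and 0.25. The highest 5 also held chr3:178837405-178837711, at 0.78, and chr3:178615868-178616174, at 0.77.

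The pair furthest below was chr3:186728690-186729171, with a control pileup of 38, a knockout pileup of 21 and a log2 ratio of -1.45 (-2.30 to -0.65). Fold enrichment there was 8.94 in control cells and 4.06 in knockout cells. Next came chr3:175546697-175547290, with 35 and 22 and a log2 ratio of -1.27 (-2.11 to -0.46). The pair at chr3:195452731-195453682 had 54 and 35 and a ratio of -1.22 (-1.88 to -0.58), and chr3:194289301-194289630 had 23 and 15 and a ratio of -1.21 (-2.26 to -0.21). In all 5 the background was lower in the knockout, by 0.17 to 0.41 on the log2 scale, which is less than the pileup fell. None of these 10 pairs lay in the interval of PIK3CA, SOX2 or TP63.

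Strong members found in 1 list only were more often knockout peaks as deposited and more often control peaks once knockout values were divided by the ratio of floors. In the deposited lists 124 of 2629 strong control members had no knockout peak, or 4.72% (3.94 to 5.60), against 2.94% (2.55 to 3.37) on the rest of chromosome 3 and 3.24% over the genome. Of 3184 strong knockout members 284 had no control peak, or 8.92% (7.95 to 9.96), against 19.2% (18.5 to 20.0) on the rest and 14.9% over the genome. When the knockout was scaled by that ratio and both lists were held to 261657 peaks, 195 strong control members (7.42%) and 64 of 2128 strong knockout members (3.01%) lacked a counterpart. On the rest of chromosome 3 the same step gave 314 control-only (4.66%) and 588 knockout-only peaks (8.19%), the opposite order. The segment was chosen by its lower knockout-to-control ratio, which itself tends to give fewer knockout-only and more control-only peaks. Nothing is therefore read from this contrast with the rest. Division alone, with no list shortened, gave 127 control-only and 64 knockout-only members in the segment, and shortening alone gave 193 and 284. The order thus turned with the division, and the rise in control-only members came with the shortening. These separate steps were added after seeing the data. This scaling is a fixed division that adds no counting error to the knockout, and it looks at summits alone, not at how wide a peak must be. By window, 22 of 27 held more knockout-only peaks as deposited, and after both steps 22 held more control-only peaks. As deposited, the rest of chromosome 3 had the same order, with 198 control-only and 2090 knockout-only strong peaks. Windows of the rest were not counted after both steps, so these counts do not set the segment apart. The knockout-only shares there were 19.2% as deposited and 8.19% after both steps. The 2 windows that then had more knockout-only peaks were 184 to 185 Mb, with 7 against 5, and 189 to 190 Mb around TP63, with 5 against 2.

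**Figure D3:**
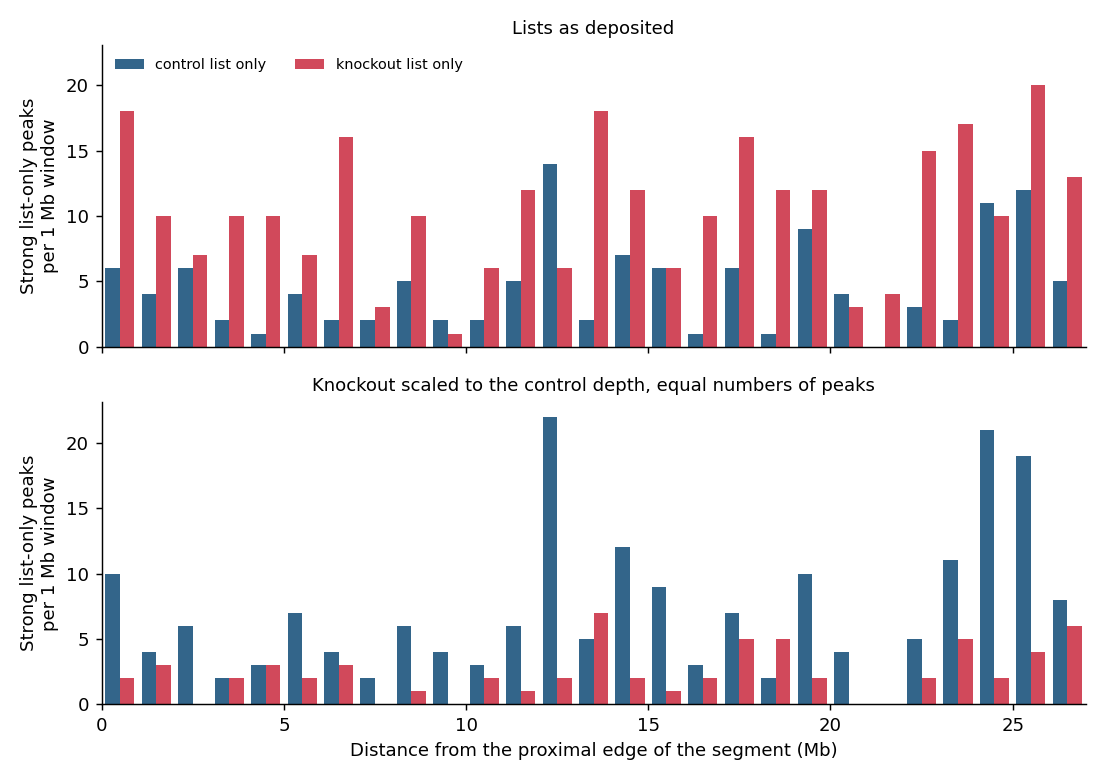
Strong peaks found in 1 list only in each 1 Mb window, by distance from the proximal edge of the segment, in the lists as deposited (top) and after the knockout was divided by the ratio of floors and both lists held to equal numbers of peaks (bottom). Red bars (knockout only) exceed blue bars (control only) in 22 windows at the top and in 2 at the bottom.

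The strongest control-only member by fold was chr3:183215557-183215975, with a pileup of 42 (30.3 to 56.8, exact Poisson), 14.4 times the floor, and a fold of 8.99. The nearest knockout peak was 3210 bp away. At the knockout's depth the same level would give a pileup of 63.6. Next were chr3:182446684-182447164 with a pileup of 35, chr3:171343785-171344178 with 34, chr3:188883008-188883406 with 31 and chr3:190948306-190948793 with 30, and folds from 7.33 to 7.64. Over all 124 the median pileup was 25, against 34 for strong control members shared with the knockout. The window at 183 to 184 Mb held the most, 14 as deposited and 22 after both steps.

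By pileup 2 of the 284 strong knockout-only members stood far above the others, the third having 59. They were chr3:176079909-176080659, with a pileup of 109 (89.5 to 131), 24.6 times the floor, and chr3:197458242-197458881, with 101 (82.3 to 123), 22.8 times the floor. Their folds were 9.18 and 8.29 and their backgrounds 2.48 and 2.55 times the floor. A control peak lay close to each, at 419 and 324 bp, with pileups of 47 and 26, so the loci were not empty in the control list. They also had the highest folds. The other 3 of the 5 highest by fold were chr3:196643722-196644101 with a pileup of 41, chr3:197840293-197840871 with 57 and chr3:197589932-197590472 with 38. The second of these 3 had no control peak within 7320 bp. Over all 284 the median pileup was 30, against 42 for shared strong knockout members.

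The members with the highest pileups lay near the chromosome end, and most were shared by both genotypes. The peak chr3:195357575-195359909 had the highest knockout pileup, 162 (36.6 times the floor), and its control partner had 134 (45.8 times the floor). At chr3:195370935-195374127 control and knockout pileups were 141 and 144, at chr3:195397810-195399069 119 and 132, and at chr3:197384093-197386213 116 and 156. The log2 ratios of these 4 ran from -0.57 to -0.17. The fifth in the knockout, chr3:194208081-194209010, went the other way, with a control pileup of 60, a knockout pileup of 136 and a ratio of 0.58. The control's highest pileup, 181 at chr3:196625433-196625994, had no overlapping knockout peak. Its background was 26.8 times the floor and its fold only 2.30. The longest member was the same locus in both lists, chr3:197365542-197373869 (8328 bp) for the control and chr3:197364799-197373053 (8255 bp) for the knockout, and each list had 37 members longer than 2000 bp.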

How the data were processed

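Methylated DNA immunoprecipitation sequencing gave 4 libraries, and the lists of peaks from the 2 immunoprecipitated ones were analysed. BWA, FastQC, MACS2 and the hg19 build are named, per the submitters' processing notes. Tool versions, settings and how duplicates were treated are not given in the sources used here. Deposited lists, 1 per genotype, give positions counted from 1 (end minus start plus 1 equalled the length in every peak), pileup signal at the summit, not scaled by the authors between libraries, the authors' fold enrichment (a ratio), and deposited −log10 p and −log10 q values. Lists were matched to samples by genotype and antibody words. Library totals were not listed.

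Local background was computed as (pileup + 1) / fold − 1. A Poisson tail on it returned the listed −log10 p within 0.000573 (control) and 0.000329 (knockout). Control peaks had a −log10 q of at least 2.01 and knockout peaks of at least 2.00. Members overlapped the segment by at least 1 bp, and windows took peaks by their summits. The depth-scaled alternative divided knockout pileup and background by 1.51, took −log10 q from the control's relation of p to q, and kept 261657 peaks in each list. Intervals over pairs cover scatter within these libraries, not replicate error, and the interval of a difference of medians and that of the mean background are normal approximations. With 1 library per group no test was made.

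Named regions were all peaks at PIK3CA, SOX2 and TP63, the 5 pairs furthest from the segment median in each direction, the 5 list-only strong peaks of highest fold and the 5 highest pileups per list, and the extreme windows. The longest peaks, the peaks next to SOX2 and the flanks of genes were added after values were seen. The segment and these rules were chosen with earlier results of these data known. Other gene starts were not used here, since no annotation of hg19 was used. Scripts were tested on simulated data (Python 3.11.15, scipy 1.17.1, pandas 2.3.3).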

Additional observations from a re-analysis of the deposited data

How the results depend on the processing

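Depth is known only through the floors, and at pileups of 25 and 34, as in a pair at PIK3CA (chr3:178909356-178909692), counting error alone left the log2 ratio between -0.94 and 0.65. Of 49 alternatives over 13 results, 19 stayed within the bounds used (1.5 times for counts, the 95% interval for log2 values), 28 left them and 2 reversed. The alternatives for TP63, for the SOX2 flank, for scaling or shortening alone and for the background without the last 3 Mb were chosen after seeing the data. The segment's median log2 ratio of -0.21 became -0.23 among pairs strong in both lists, -0.25 when centred on all pairs (by construction) and -0.019 as a ratio of fold enrichment. Its difference from the rest of chromosome 3, -0.32, became -0.27 against the stretch of equal length before it, -0.25 against all other chromosomes and -0.10 by fold enrichment. The mean background ratio of -0.11 became -0.060 where both lists were above the floor and -0.22 when centred (by construction). By stricter thresholds the peak counts fell by construction, from 4131 to 2629 control peaks at a −log10 q of at least 10, and to 2648 control and 2569 knockout peaks at a fold of at least 5. List-only strong peaks, 124 control and 284 knockout, became 536 and 616 at a −log10 q of at least 5, 3 and 15 at 20, and 299 and 486 by 50% reciprocal overlap. Knockout-only peaks became 174 with no control peak within 1000 bp, and scaling together with equal numbers of peaks gave 195 and 64. Scaling alone gave 127 and 64, and equal numbers alone 193 and 284. The 3 departing windows became 1 with windows shifted by 0.5 Mb, 0 with windows of 2 Mb and 0 with a departure of more than 0.2. The 3 pairs 2-fold above became 1 with 50% reciprocal overlap, and the 5 below became 3 with a pileup of at least 20. Knockout peaks at TP63 became 8 at a −log10 q of at least 10, against 5 control peaks. The median around SOX2, 0.04, turned to -0.022 with a flank of 50 kb and -0.21 with 200 kb. The cause was not tested except where given. No paired analysis was possible because there was only 1 library for either genotype.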
